A study of Mus musculus with 20 samples.

Results

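The 35 genes described here encode the enzymes and transporters of glycolysis, of lactate and pyruvate handling, of the pentose phosphate route and of the glycerol phosphate shuttle, and they were chosen by gene symbol. All 35 were found among the 27998 genes of the scRNA-seq tables and among the 24062 genes of the bulk RNA-seq tables. Cells were taken from the dentate gyrus of Nestin-EGFP mice at P5, 12w and 24w, sorted as viable EGFP+ cells and profiled by scRNA-seq and scATAC-seq, with 1 library per age and assay and no treatment. Nestin drives the reporter in NSCs but also in vascular mural cells, so the gate held both. Bulk RNA-seq was made from mouse NSCs in culture, which the methods give as a long-passaged line from embryonic cortex and the labels as hippocampus, 3 days after lentiviral infection with a scrambled shRNA (Ctrl) or an shRNA against Setd8 (Setd8 KD), the enzyme that places a single methyl group on lysine 20 of histone H4. The labels do not say how many animals or cultures stand behind a library.

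Glucose enters cells through Slc2a family transporters, is trapped by hexokinase and is broken down to pyruvate by a chain of cytosolic enzymes. Pyruvate is then turned into lactate by lactate dehydrogenase, whose Ldha and Ldhb subunits differ in the direction they favour, or enters mitochondria and is oxidised by pyruvate dehydrogenase, which the kinases Pdk1 to Pdk4 switch off. Monocarboxylate transporters of the Slc16a family carry lactate across the plasma membrane, and in the brain astrocytes and their precursors are known for storing glycogen, for making lactate and for the aldolase paralog Aldoc.

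Nearly all start sites of these genes lay in open chromatin at every age. RefSeq promoter windows (GRCm38.p6, 250 bases before to 50 bases after a start site) were found for 33 members, with 51 windows in all, and not for Slc2a3 and Gpd1. Of the 51 windows 47 lay in a peak at all 3 ages. Each of the 33 members had at least 1 start site inside a scATAC-seq peak of all 3 libraries, whereas 51.9% of the 27025 genes in the promoter table did. Those genes include 11445 with no start site in a peak of any library, and they were not matched to the members for expression. Peaks were called per library over all cells, so they do not show in which cell type a start site was open. The letters ACGTG, the core of the element bound by hypoxia-inducible factors and of the E-box bound by Myc and Usf proteins, were searched on both strands, as ACGTG or CACGT, which overlap in the palindrome CACGTG. A single palindrome therefore counts as 2 matches in all numbers of matches given here. They were present in 24 of the 51 member windows (47.1%), in 19.6% of all 32851 windows of the same length and in 24.6% of the windows open in all 3 libraries. At least 2 matches were present in 21.6% of member windows, 8.21% of all windows and 11% of the open ones. CACGTG was present in 11.8% of member windows, near its share of 9.53% in the open ones (7.15% of all). The windows were not matched for their content of G and C. The windows of 3 paralog pairs whose levels differed between cell types are printed 5′ to 3′ on the strand of the gene, with capitals for the searched letters. These pairs were not ranked against the other paralog groups. They lie at chr7:126799205-126799504 (minus strand, Aldoa, its second start site in the table), chr11:78322823-78323122 (plus strand, Aldoc), chr7:46845554-46845853 (plus strand, Ldha), chr6:142507908-142508207 (minus strand, Ldhb), chr3:104638414-104638713 (plus strand, Slc16a1) and chr11:120948817-120949116 (plus strand, Slc16a3). Within each pair the numbers of matches on the 2 strands were 1 for Aldoa and 1 for Aldoc, 5 for Ldha and 0 for Ldhb, and 3 for Slc16a1 and 2 for Slc16a3.
Aldoa: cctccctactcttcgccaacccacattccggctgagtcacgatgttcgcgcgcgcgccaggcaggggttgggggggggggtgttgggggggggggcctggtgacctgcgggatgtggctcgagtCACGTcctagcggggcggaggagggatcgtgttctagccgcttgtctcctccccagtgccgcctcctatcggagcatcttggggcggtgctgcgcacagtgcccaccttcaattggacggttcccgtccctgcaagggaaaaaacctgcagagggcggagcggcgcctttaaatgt
Aldoc: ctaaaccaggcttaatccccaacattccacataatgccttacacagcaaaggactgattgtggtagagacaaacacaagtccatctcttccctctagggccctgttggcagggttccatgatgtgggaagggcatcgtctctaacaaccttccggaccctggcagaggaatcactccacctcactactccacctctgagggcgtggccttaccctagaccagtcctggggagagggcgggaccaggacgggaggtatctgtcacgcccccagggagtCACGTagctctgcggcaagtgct
Ldha: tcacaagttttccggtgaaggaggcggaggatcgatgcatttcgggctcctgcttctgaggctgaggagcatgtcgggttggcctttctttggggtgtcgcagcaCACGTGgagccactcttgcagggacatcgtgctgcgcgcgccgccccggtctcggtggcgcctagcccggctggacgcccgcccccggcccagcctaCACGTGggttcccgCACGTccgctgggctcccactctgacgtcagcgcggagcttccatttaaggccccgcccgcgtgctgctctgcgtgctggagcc
Ldhb: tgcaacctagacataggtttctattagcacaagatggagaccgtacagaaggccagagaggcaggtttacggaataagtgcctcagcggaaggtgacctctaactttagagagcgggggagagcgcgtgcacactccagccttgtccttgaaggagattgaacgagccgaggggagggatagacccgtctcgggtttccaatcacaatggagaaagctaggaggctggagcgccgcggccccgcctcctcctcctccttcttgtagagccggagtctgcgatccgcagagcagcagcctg
Slc16a1: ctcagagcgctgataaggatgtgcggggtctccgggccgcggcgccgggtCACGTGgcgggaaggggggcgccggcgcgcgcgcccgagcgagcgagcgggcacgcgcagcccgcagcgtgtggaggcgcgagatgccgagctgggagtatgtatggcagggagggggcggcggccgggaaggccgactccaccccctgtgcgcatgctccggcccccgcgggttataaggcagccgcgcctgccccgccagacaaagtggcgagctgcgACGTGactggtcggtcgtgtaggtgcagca
Slc16a3: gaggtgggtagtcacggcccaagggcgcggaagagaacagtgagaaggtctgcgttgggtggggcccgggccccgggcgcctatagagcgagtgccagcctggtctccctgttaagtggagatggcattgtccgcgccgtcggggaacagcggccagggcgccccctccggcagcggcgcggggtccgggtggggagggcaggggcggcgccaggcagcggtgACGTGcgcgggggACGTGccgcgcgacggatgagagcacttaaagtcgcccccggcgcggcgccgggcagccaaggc
A match is a description of the letters, and binding was not measured at these windows.

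In the scRNA-seq data the P5 library kept 12752 cells, the 12w library 5271 and the 24w library 2794, with median depths of 4261, 2271 and 2178 UMIs per cell. Cells were clustered with the genes of the pathway left out of the variable genes and named from marker genes as NSC, NPC (dividing progenitors), IMN1 and IMN2 (immature neurons), AS (astrocytes) and PC (pericytes), with 102 to 1215 NSCs, 115 to 3922 AS and only 34 to 374 IMN1 per library. Names were rebuilt from markers and may differ from those of the study. Between 26 and 86 cell barcodes were shared by pairs of libraries. The libraries differed in sex by Xist and Y-linked UMIs, with both kinds of cell at P5, Xist without Y-linked UMIs at 12w and Y-linked UMIs at 24w. Vascular cells made up a growing part of the sort, and free RNA, estimated from vascular markers in NSCs, made up 9.64% of their UMIs at 12w and 11.04% at 24w (the P5 table lists selected barcodes only, so none was estimated there). Where the free RNA predicted for a gene exceeds its counted level, as in several cases below, the prediction is too high for that gene and class. A UMI marks 1 molecule whatever the length of the transcript, so a level relative to all UMIs of the class, scaled as CPM, can be set side by side between genes. Gapdh, Ldha, Pgk1, Aldoa, Eno1, Tpi1 and Pgam1 have near-identical processed copies in the genome, and their levels are uncertain to the extent that counting split or dropped shared reads.

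In NSCs Aldoc was the highest member, with 2093 CPM at P5 and 6597 and 5677 CPM at the adult ages. Gapdh followed at P5 with 716 CPM, and Aldoa, Gapdh, Pkm, Ldhb and Eno1 lay between 513 and 1084 CPM at both adult ages. The transporters and regulators were low, with Slc2a1 at 11.2 to 44.3 CPM, Slc16a1 at 13.8 to 33.2 CPM and Pfkfb2, Hk2 and Pdk4 at no more than 11.6 CPM. Slc16a3, the lactate exporter of strongly glycolytic tissues, gave 3 UMIs over the 3 NSC libraries. All members together took 0.574% of NSC UMIs in the P5 library and 1.27% and 1.22% in the adult ones. In AS Aldoc was also the highest member at every age, as the plot of levels shows.

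**Figure D1:**
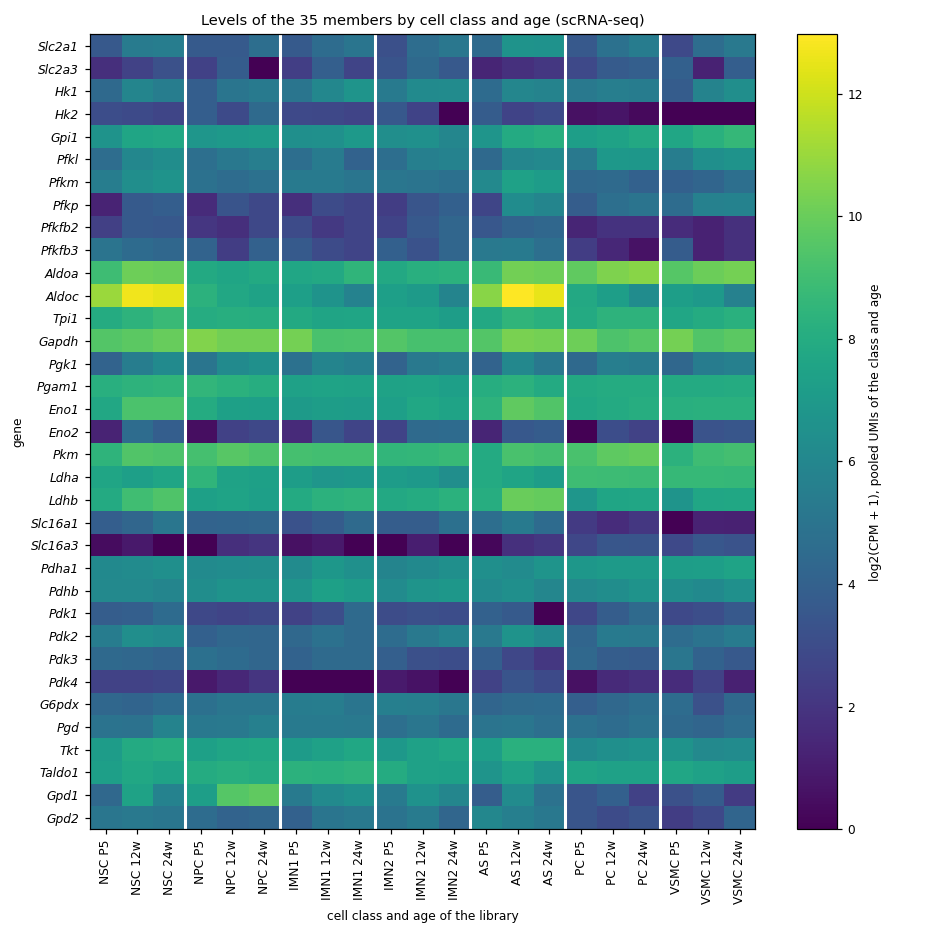
Level of each of the 35 members (rows) in 7 cell classes at 3 ages (columns, 1 library per age), as log2(CPM + 1) of the UMIs pooled over the class; VSMC are vascular smooth muscle cells. Aldoc is bright in NSC and AS and reaches 8020 CPM in AS at 12w, while Slc16a3 rests on no more than 4 UMIs per library in the 5 classes other than PC and VSMC.

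The comparison between cell classes asked how NSCs differ from their progeny and neighbours within each library. UMIs were summed per class and library and fitted with edgeR's quasi-likelihood test with the library as a block, and a gene was called at a Benjamini-Hochberg adjusted p under 0.05 over 12545 genes; every adjusted p of this comparison comes from that test. Each class enters once per library and the libraries differ in age. With the library as a block, p measures only how class differences vary between libraries, and so also between ages. This spread was estimated jointly over all classes of the fit, which also held oligodendrocytes, ependymal cells and vascular smooth muscle cells. Of 15 dissociation stress genes 0 were called higher and 6 lower in NPC, 0 and 5 in IMN1, and 1 and 1 in IMN2. In AS these counts were 0 and 0, and in PC 6 and 3. The shares of all genes are given with each class below, and the part of these genes in the class differences was not tested.

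NPCs held less of both aldolases and of the kinases Pdk1, Pdk2 and Pdk4 than NSCs, and more Gpd1. Of the 35 members 2 were higher and 10 lower in NPC, where 15.9% and 18.1% of all genes were, and the median log2 change was -0.19 (-0.08 over all genes). Aldoc was 325, 219.5 and 174 CPM in NPC at P5, 12w and 24w against 2093, 6597 and 5677 in NSC, a log2 change of -4.43 ± 0.54 (SE, 3 libraries, adjusted p = 8.469e-07). Predicted free RNA equalled 65.3% (12w) and 62.3% (24w) of the NPC level of Aldoc, whereas for Aldoa it equalled 56.4% and 84.7%. Its paralog Aldoa fell by 1.87 ± 0.25 on the log2 scale (adjusted p = 2.329e-06), from 488 to 237 CPM at P5 and from 1084 to 197 CPM at 12w. Both aldolases were lower in NPC in every library, without overlap of the groups. Pdk2, a kinase that inhibits pyruvate dehydrogenase, was 14.5, 19.3 and 18.3 CPM in NPC and 42.7, 82.9 and 71.9 CPM in NSC (log2 change -1.80 ± 0.27, adjusted p = 1.217e-05), and Pdk1 and Pdk4 were also called lower (Pdk4 lost the call at a clustering resolution of 0.4, with an adjusted p of 0.0755), while Pdk3 was not (0.25 ± 0.31). Pdk4 was only 0.818, 1.756 and 3.05 CPM in NPC and 4.95, 4.975 and 5.53 CPM in NSC. At 24w both values lay under the level of 3 UMIs, 9.15 CPM in NPC and 8.30 CPM in NSC, so the size of this fall is uncertain.

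The member that rose most in NPC was Gpd1, the cytosolic glycerol phosphate dehydrogenase that links glycolysis to lipid synthesis. It was 154, 757 and 884 CPM in NPC and 19.98, 177 and 52.5 CPM in NSC (log2 change 2.87 ± 0.48, adjusted p = 4.897e-05). NPC were higher at every age, although the NPC level at P5 lay below the NSC level at 12w. Its mitochondrial partner Gpd2 did not pass (-0.79 ± 0.33, adjusted p = 0.0727). Pgk1, which makes ATP from bisphosphoglycerate, was the other member called higher (log2 change 0.67 ± 0.25), but it was lost without the P5 library, without the 12w library, with free RNA subtracted and without the block (adjusted p up to 0.531 over the alternatives). Aldoa, Aldoc, Pdk2 and Gpd1 passed under every alternative tried, whereas Pfkm, Pfkfb3, Eno1, Eno2, Ldhb and Pdk1 were lost without the 12w library. Over all alternatives Pfkfb3 lost the call in 6, Pdk1 in 4, Eno2 in 3, and Pfkm, Eno1 and Ldhb in 2 each. In all, 4 members and 1552 genes were called without the 12w library, 7 and 2680 without 24w, and 20 and 4789 without P5. The other genes of the pathway, a list of 52 of which 35 were tested, gave 5 higher and 10 lower, with Slc2a4, Tigar and Adpgk higher and Pcx, Pgm2 and Slc2a10 lower.

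Immature neurons held less of Aldoa, Aldoc, Pgam1 and Eno1 than NSCs. In IMN1, 3 members were higher and 9 lower (16.8% and 21% of all genes), and in IMN2 2 were higher and 10 lower (19.3% and 21.9%), with median log2 changes of -0.45 and -0.44 (-0.10 and -0.04 over all genes). Aldoc was 162, 98.6 and 52.5 CPM in IMN1 (log2 change -5.60 ± 0.58, adjusted p = 7.435e-08) and 158, 133 and 56.2 CPM in IMN2 (-5.42 ± 0.57, adjusted p = 5.75e-08). Predicted free RNA equalled 115% and 182% of the IMN1 level at 12w and 24w, and 101% and 174% of the IMN2 level. These predictions exceed the counted level and so are too high. The adult level of Aldoc in these classes could not be told apart from free RNA, and its true part is not known. Eno1, the common enolase, fell by 1.76 ± 0.33 in IMN1 and by 1.32 ± 0.32 in IMN2 on the log2 scale, and Pgam1, the mutase before it, by 0.96 ± 0.18 and by 0.93 ± 0.17. Eno1 was 131 to 147 CPM in IMN1 and 158 to 211 CPM in IMN2, below the NSC values of 219.6, 626 and 619.5 CPM in each library. Eno2, the enolase of mature neurons, was 5.06, 21.1 and 22.5 CPM in IMN2 and 1.47, 23.2 and 13.8 CPM in NSC, which did not pass (0.64 ± 0.46, adjusted p = 0.281).

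A few members were called higher in immature neurons. Without the 12w library 6 members and 2206 genes were called in IMN1, and 4 members and 2787 genes in IMN2. Eno1, Tpi1, Pfkm, Gpi1, Ldhb and Pdk2 were among the members lost in IMN2, where Ldhb lost its call in 6 alternatives. In IMN1 Tpi1 (log2 change -0.72) and Pfkm (-0.91) were lost in 5 alternatives each. Among these were leaving out the 12w library, leaving out the 24w library, a clustering resolution of 0.4 and subtraction of free RNA. Pfkfb3 (-1.57) was lost in 3 alternatives, among them leaving out the 12w library and subtraction of free RNA. Slc2a3, the glucose transporter of neurons, was 9.16, 20.5 and 11.2 CPM in IMN2 and 2.38, 4.97 and 8.30 CPM in NSC (log2 change 1.80 ± 0.61, adjusted p = 0.0204), but this call was lost without the 12w library, with free RNA subtracted and without the block (adjusted p up to 0.109). G6pdx, the entry enzyme of the pentose phosphate route, was called higher in both, by 1.10 ± 0.32 in IMN1 and by 1.24 ± 0.31 in IMN2, where it was 46.8, 45.6 and 33.8 CPM against 19.1, 17.4 and 22.1 CPM in NSC. G6pdx in IMN2 passed under every alternative, whereas G6pdx and Pdhb in IMN1 were lost without the 12w library and Taldo1 in IMN1 without the 24w library. Pdk4 gave 0 UMIs in IMN1 over the 3 libraries and 35 in NSC, so it was at least 5.73-fold lower by the limit of 3 UMIs over the class. With Pdk4 at that bound the IMN1 median stayed at -0.45. The other genes of the pathway gave 4 higher and 12 lower in IMN1 and 3 higher and 12 lower in IMN2, and Pcx, the pyruvate carboxylase known from astrocytes, was lower in both.

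AS had the fewest calls against NSC of the 5 classes. Only 2 members were higher and 0 lower in AS by edgeR, where 0.853% and 0.191% of all genes were called. By edgeR 8 of 35 members had an unadjusted p under 0.05, as did 1460 of all 12545 genes. DESeq2 called 2 members and 132 genes. The called members were Slc2a1, the glucose transporter of the blood-brain barrier and of glia, and Pfkp, the platelet type of phosphofructokinase. Slc2a1 was 21.4, 100.4 and 96.8 CPM in AS and 11.2, 40.6 and 44.3 CPM in NSC (log2 change 1.27 ± 0.27, adjusted p = 0.018). Pfkp was 5.61, 78.6 and 58.1 CPM in AS and 1.47, 11.6 and 13.8 CPM in NSC (2.51 ± 0.46, adjusted p = 0.00819). Both were higher in AS in each of the 3 libraries, and both lost the call without the 12w library, without the 24w library, with free RNA subtracted and without the block, and Aldoc did not pass (0.23 ± 0.46). Without the P5 library 7 members and 786 genes were called, and without the 12w or the 24w library 0 members and 0 genes.

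PCs held more Ldha and Slc16a3 and less of most other called members than NSCs. In PC 5 members were higher and 14 lower (18.5% and 21.7% of all genes). Ldha, the subunit of lactate dehydrogenase that favours lactate, was 494, 476 and 452 CPM in PC and 198, 158 and 194 CPM in NSC (log2 change 1.49 ± 0.25, adjusted p = 2.306e-05), and Ldhb was 113, 196 and 201 CPM against 245, 513 and 680.3 (-1.36 ± 0.30, adjusted p = 0.000553). The groups did not overlap for either subunit. Slc16a3, the lactate exporter, was 5.69, 9.99 and 9.57 CPM in PC and 0.367, 0.829 and 0 CPM in NSC (3.71 ± 0.82, adjusted p = 0.000611). The NSC values rest on 2, 1 and 0 UMIs, and 3 UMIs would be 2.49 CPM at 12w and 8.30 CPM at 24w, so the size of this change is uncertain. Slc16a1, the importer and exporter of most other cells, was 3.62, 2.13 and 3.28 CPM against 13.8, 18.2 and 33.2 CPM (-2.66 ± 0.37, adjusted p = 1.755e-06). Predicted free RNA equalled 98.4% and 114% of the Slc16a1 level in PC at 12w and 24w.

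Members of the hexokinase, phosphofructokinase and shuttle groups were also called. Hk2 gave 5 UMIs over the 3 PC libraries (log2 change -3.36 ± 0.66), and Hk1 did not pass (0.18 ± 0.31). Among the phosphofructokinases Pfkp was higher in PC (1.88 ± 0.46) and Pfkm lower (-1.84 ± 0.32). Pfkfb3, which raises the activator of phosphofructokinase, was 4.14, 1.70 and 0.547 CPM in PC and 30.4, 22.4 and 19.4 CPM in NSC (-3.53 ± 0.47, adjusted p = 1.019e-06), and predicted free RNA equalled 93.1% and 331% of its PC level at 12w and 24w. Tkt, Gpd1 and Gpd2 were lower, with log2 changes of -1.26, -2.83 and -1.94, and Pdha1 was higher, with 0.80. Predicted free RNA equalled 138% and 236% of the Gpd1 level in PC at 12w and 24w. Ldha, Slc16a3 and Pdha1 among the higher members, and Hk2, Pfkm, Pfkfb3, Aldoc, Ldhb, Slc16a1, Tkt, Gpd1 and Gpd2 among the lower, passed under every alternative in which they were tested. Aldoa, Eno1, Eno2 and Pfkfb2 were lost without the 12w library and without the 24w library. Over all alternatives Aldoa lost its call in 4, Eno1 in 6, Eno2 in 5 and Pfkfb2 in 2. Pfkp and Pdk2 lost theirs in 1 alternative each and Pdk4 in 3. Of the hypoxia response genes 7 of 18 were higher and 5 lower in PC, with Epas1, Adm and Ero1l higher and Ddit4, Vegfa and Kdm3a lower.

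**Figure D2:**
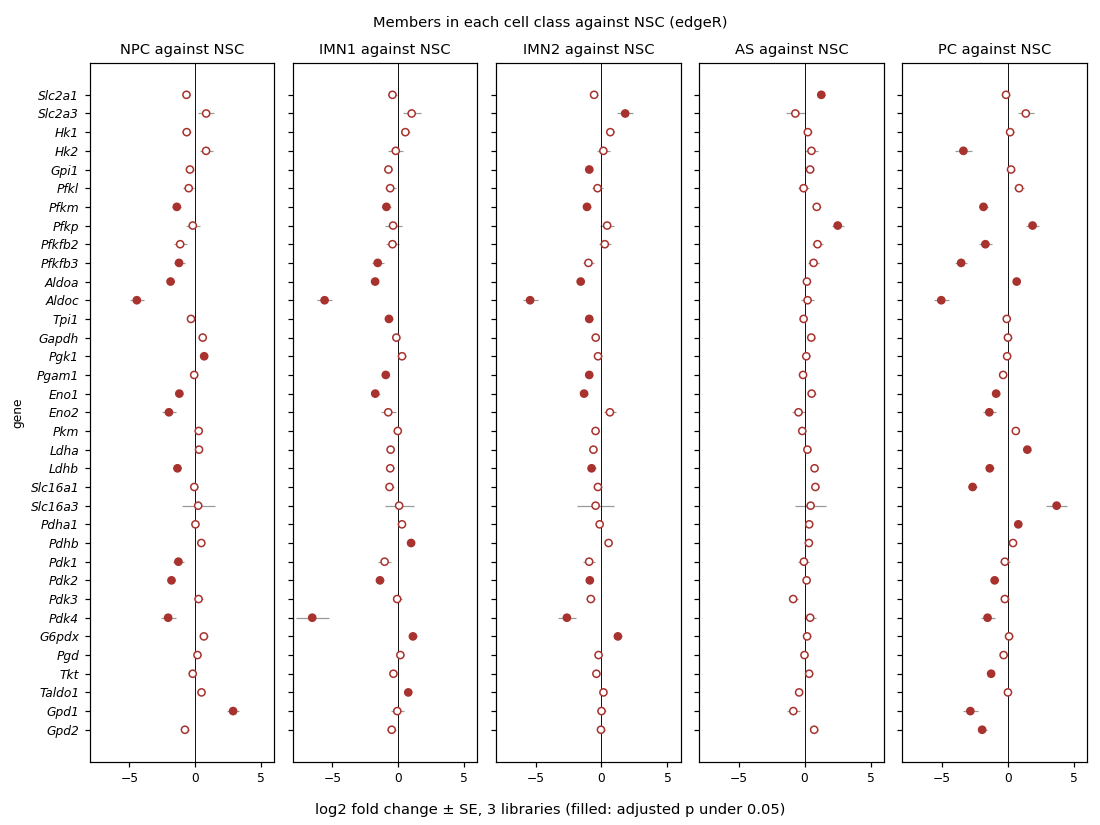
log2 fold change of each member (rows) in 5 cell classes against NSC, with bars for the SE of the joint fit to 3 libraries and filled points for an adjusted p under 0.05. Aldoc lies near -5 in NPC, IMN1, IMN2 and PC and near 0 in AS, and the only filled points in AS are Slc2a1 and Pfkp.

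Endothelial cells (EC), with only 12 cells at P5, were not fitted. Slc2a1, the glucose transporter of the blood-brain barrier, was 275 CPM in EC at P5 (exact 95% Poisson interval 192 to 382), 1063 CPM at 12w (942 to 1195) and 1178 CPM at 24w (1067 to 1297). Slc16a1, its lactate transporter, was 644 CPM at P5 and 304 and 297 CPM at the adult ages. In ependymal cells (EP) Slc2a1 was 192 CPM at P5 (170.0 to 217), where the interval overlapped that of EC, and 569 and 604 CPM at the adult ages. Slc2a3 and Hk2 gave 0 UMIs among 743914 in EC, which allows up to 4.03 CPM by the limit of 3 UMIs over the class. These intervals cover counting error only.

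The make-up of the paralog pairs differed between the classes. Ldhb made up 55.3% of Ldha and Ldhb UMIs in NSC at P5 (exact 95% binomial interval 53.3 to 57.3), 76.5% at 12w (73.4 to 79.4) and 77.8% at 24w (72.9 to 82.3). In AS the share was 53.2%, 84.4% and 86.5%, and in PC 18.6%, 29.1% and 30.8%. In NPC the share was 31.6% at P5 and then 51.6% and 49.5%, below NSC at each age. In IMN1 it was 61.9%, 74.3% and 73.9%, above the NSC share at P5 and below it at the adult ages, where the intervals overlapped. In EC it lay between 9.84% and 11.6%. Aldoc made up 81.1%, 85.9% and 84.7% of aldolase UMIs in NSC and 20.5%, 9.70% and 4.72% in PC. Predicted free RNA equalled 143% and 186% of the Aldoc level in PC at 12w and 24w. This is more than was counted, so the prediction is too high, and the adult PC shares could not be told apart from free RNA. Slc16a3 made up 61.1%, 82.5% and 74.5% of the UMIs of both lactate transporters in PC, against 2.60%, 4.35% and 0% in NSC (0 of 12 UMIs at 24w, an upper limit of 26.5%). Hk2 made up 50.7% of Hk1 and Hk2 UMIs in NPC at P5 (44.6 to 56.9) and 27.0% in NSC (20.1 to 34.8), while at 12w it was 16.9% in NPC (8.76 to 28.3) and 10.3% in NSC (4.53 to 19.2), intervals that overlapped. As cells of 1 library share their source, these intervals do not cover the spread between animals.

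**Figure D3:**
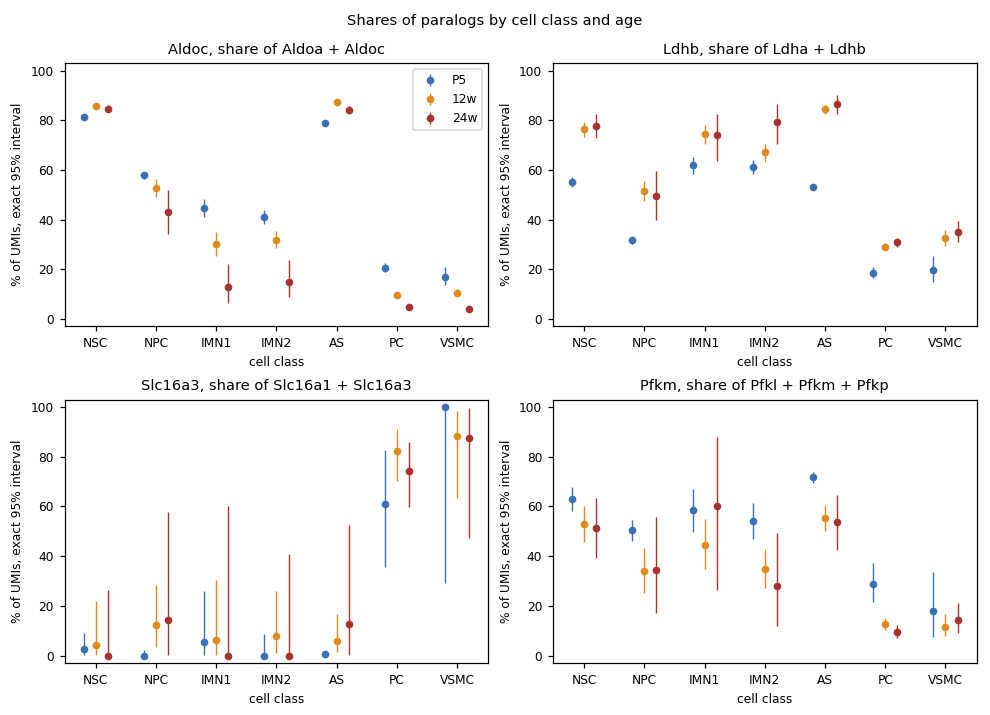
Share of the UMIs of a paralog group held by Aldoc, Ldhb, Slc16a3 and Pfkm (panels) in 7 cell classes at P5, 12w and 24w (colours), with exact 95% binomial intervals for counting error. The Ldhb share is higher at the adult ages in both, going from 55.3% to 77.8% in NSC and from 18.6% to 30.8% in PC.

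The comparison between ages asked whether NSCs, their progeny and AS change these genes between the early postnatal and the adult dentate gyrus. With 1 library per age no test is possible, and the 12w and the 24w values share the P5 library, so ratios of CPM to P5 are given with exact conditional intervals for counting error. A gene was counted as raised when it was at least 1.5-fold above P5 at both adult ages with at least 20 UMIs at each of them, and as lowered by the mirrored rule with at least 20 UMIs at P5. A gene was compared when it had at least 20 UMIs at P5 or at both adult ages. Genes too low at the adult ages to count as raised therefore stand among all genes compared. The shares of members and of all genes were not matched for level. Age cannot be told apart from library or sort here. Against P5 cells of like sex, 12 members of 24 compared were raised and 0 lowered in NSC, where 661 and 805 of 7156 genes were, and 12 of 31 raised and 2 lowered in AS, where 669 and 1334 of 9942 genes were, with Aldoc in NSC at 2.92 and 2.81 times and Ldhb at 2.00 and 3.01 times P5.

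NSCs held more of several glycolytic enzymes at both adult ages. Of 31 members compared 11 were raised and 0 lowered, where 6.58% and 11% of all 10887 genes compared were, without matching for level. These were Gpi1, Pfkl, Pfkm, Aldoa, Aldoc, Pgk1, Eno1, Pkm, Ldhb, Pdk2 and Tkt. Their ratios ran from 1.68 (Pdk2 at 24w) to 4.41 (Pgk1 at 24w). The median log2 ratio of the 31 was 0.44 at 12w and 0.88 at 24w, against 0.05 and 0.12 over all genes.

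By step of the chain, Aldoc gave 11417, 7957 and 2053 UMIs in NSC at P5, 12w and 24w, a ratio of 3.15 (3.06 to 3.24) at 12w and 2.71 (2.59 to 2.84) at 24w. Eno1 was 2.85 (2.60 to 3.12) and 2.82 (2.43 to 3.25) times its P5 level, and Pkm, the last kinase of glycolysis, 2.07 and 1.88 times. Pfkl, the liver type of phosphofructokinase, was at 2.66 (1.98 to 3.55) and 3.34 (2.15 to 5.02). Slc2a1 and Hk1, which take up and trap glucose, stood at 3.63 and 3.96 times and at 2.85 and 2.17 times P5, but gave only 16 UMIs each at 24w and were not counted. The steps of Tpi1 (1.35 and 1.79 times), Gapdh (1.15 and 1.39 times) and Pgam1 (1.14 and 1.24 times) were not counted as raised.

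The lactate dehydrogenase subunits went apart. Ldhb was 245, 513 and 680.3 CPM in NSC, with ratios of 2.10 (1.90 to 2.31) and 2.78 (2.42 to 3.19). Ldha was 198, 158 and 194 CPM, with ratios of 0.796 (0.678 to 0.929) and 0.978 (0.756 to 1.25), and so did not follow Ldhb. Pyruvate dehydrogenase subunits stayed near the P5 level, Pdha1 at 1.07 and 1.23 times and Pdhb at 1.01 and 0.861 times, while the inhibitory kinase Pdk2 was at 1.94 and 1.68 times. Gpd1 stood at 8.84 times P5 at 12w and 2.63 times at 24w, with 19 UMIs at 24w.

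The summed level of all members in NSC was 2.22 times P5 at 12w and 2.12 times at 24w, and 1.68 and 1.78 times without Aldoc, a sum chosen after the values were seen. Among the other genes of the pathway 6 of 30 were raised in NSC and 3 lowered, with Pgm2, G6pc3 and Pcx raised and Bpgm, Tigar and Pgls lowered. Of 20 citrate cycle genes 6 were raised and 0 lowered, led by Idh3g, Idh2 and Idh3b. Of 15 hypoxia response genes compared, P4ha1 was raised and Egln3 and Egln2 were lowered. Summed dissociation stress genes fell from 2361 to 2003 and 1256 CPM in NSC, but of 13 compared 2 were raised and 3 lowered. Hspb1 stood at 22.26 and 27.85 times P5 and Hspa1a at 16.83 and 20.95 times, while Fos fell to 0.637 and 0.0755 times. Summed AS markers, with 10 of 10 detected, went from 1222 to 1829.9 and 2425 CPM (3379.9 to 6274 CPM in AS itself). Summed PC markers, with 7 of 7 detected, went from 272 to 1217 and 2259 CPM. The part of these stress genes and markers in the NSC ratios was not tested. With predicted free RNA subtracted 11 members were raised, where 633 genes were raised and 1440 lowered of 10879. At a clustering resolution of 0.4 only 7 of 29 members were raised, where 325 genes were raised and 1054 lowered of 10179. In the NSC cluster led by Gdf10 alone, without the cluster led by Cyr61 and Fos, 6 of 27 were raised (Gpi1, Aldoa, Aldoc, Eno1, Pkm and Ldhb), where 227 genes were raised and 893 lowered of 8858, with ratios of 2.72 and 2.39 for Aldoc and of 2.57 and 3.78 for Ldhb. This cluster held only 30 cells at 24w. Pfkl (2.095 and 3.357 times P5), Pfkm (1.658 and 3.015) and Pgk1 (2.231 and 3.528) stayed over 1.5-fold there, but had fewer than 20 UMIs at an adult age and were not counted.

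AS held more of Aldoa, Aldoc, Eno1, Pkm, Ldhb and other members at both adult ages. Of 34 members compared 12 were raised and 2 lowered, where 5.4% and 12.1% of all 12548 genes were, with a median log2 ratio of 0.92 and 0.97 (0.07 and 0.17 over all genes). The counted members were Gpi1, Pfkl, Pfkm, Aldoa, Aldoc, Eno1, Pkm, Ldhb, Pdk2, Tkt, Slc2a1 and Gapdh, from the same 3 libraries as NSC. Slc2a1 was at 4.70 (3.80 to 5.79) and 4.53 (3.02 to 6.58) times P5. Aldoc was 1618, 8020 and 5851 CPM in AS, with ratios of 4.96 and 3.62, and Ldhb was at 3.83 and 3.49 times. Pfkp, at 14.03 (10.5 to 18.8) and 10.4 (5.90 to 17.2) times P5, gave 18 UMIs at 24w and was not counted.

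Hk2 and Pdk3 were lowered in AS, Hk2 to 0.393 (0.143 to 0.868) and 0.505 times and Pdk3 to 0.432 (0.172 to 0.903) and 0.238 times, but at 24w they rested on 2 UMIs and 1 UMI and both intervals held 1. Ldha was at 0.804 and 0.62 times P5. Summed haemoglobin genes were 1444 CPM in AS at P5 and 7.53 and 54.8 CPM later, from a cluster led by these genes. Of 13 dissociation stress genes compared in AS 3 were raised and 4 lowered. Fos fell to 0.121 and 0.0667 times P5, whereas Hspb1 stood at 21.51 and 37.24 times. The part of the haemoglobin and stress genes in the AS ratios was not tested. A further AS cluster, led by Serpinf1 and Pla2g3, held 907 of the 3922 AS at P5 but 14 of 392 and 6 of 115 later. At a clustering resolution of 0.4, where a cluster led by the same 2 genes carried no name, 13 members were raised and 2 lowered in AS, where 983 and 1559 of 12268 genes were. Without the haemoglobin cluster 10 members were raised and 1 lowered in AS, where 554 and 1523 of 12317 genes were, with Aldoc at 5.17 and 3.77 times.

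**Figure D4:**
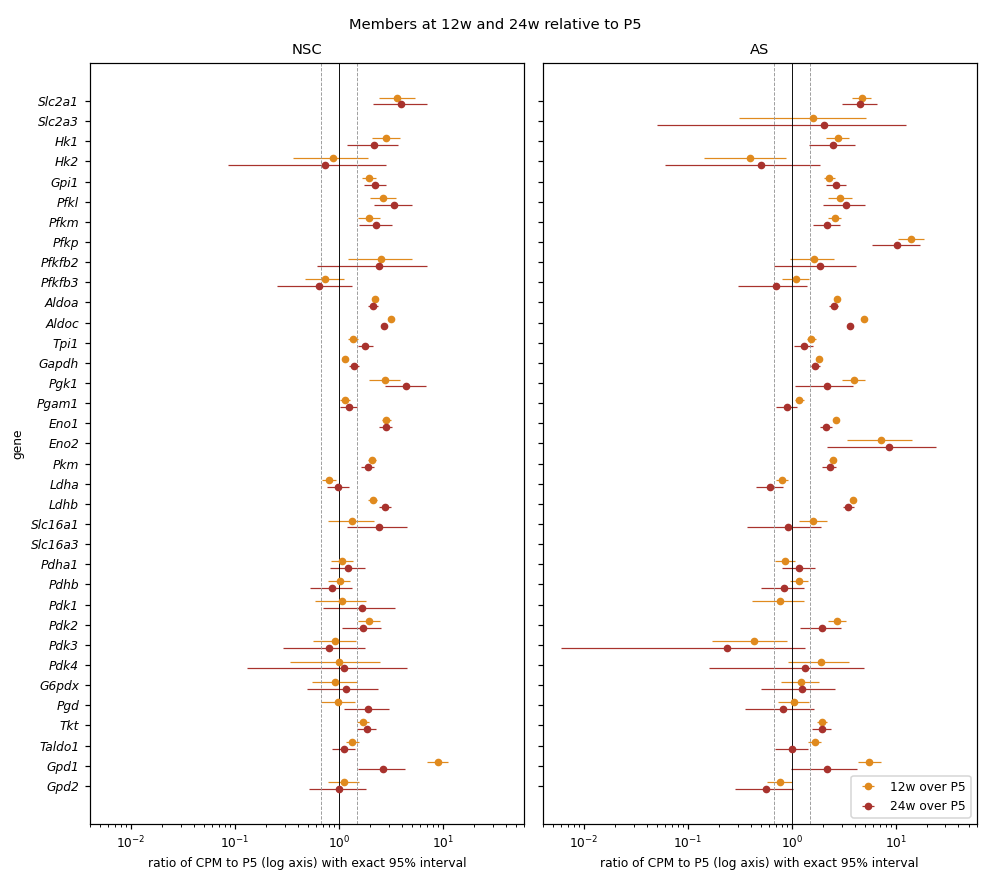
Ratio of CPM to P5 for each member in NSC (left) and AS (right) at 12w and 24w, on a log axis with exact 95% intervals for counting error; dashed lines mark 1.5-fold, and members not compared or without UMIs at that age have no point. Most points of the chain from Gpi1 to Pkm lie right of 1 in both classes, Ldhb lies at 2.10 or above and Ldha at 0.978 or below.

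NPC, IMN1 and IMN2 kept their summed level, at 1.05 and 1.05 times P5 in NPC, 0.909 and 0.957 times in IMN1 and 1.05 and 1.03 times in IMN2. In NPC 2 of 32 members were raised and 1 lowered (3.72% and 8.51% of all genes). Gpd1 in NPC was at 4.92 (4.57 to 5.31) and 5.75 (5.05 to 6.52) times its P5 level, from 1504 UMIs at P5 to 1294 and 290 UMIs of smaller classes. Pgk1 was at 2.28 and 2.90 times, and Ldha at 0.483 (0.427 to 0.543) and 0.457 (0.343 to 0.598) times. In IMN1 1 of 26 was raised and 2 lowered (3.22% and 5.46%). Hk1, the main hexokinase of neurons, was at 2.04 and 3.35 times in IMN1, Gapdh at 0.493 and 0.512 times and Aldoc at 0.61 and 0.325 times, with predicted free RNA above its level at both adult ages. In IMN2 1 of 30 was raised and 3 lowered (4.07% and 5.39%), with Hk1 at 1.86 and 1.93 times (raised in neither neuron class once free RNA was subtracted) and Taldo1 at 0.664 and 0.645 times. Hk2 and Pdk3 counted as lowered there on 0 and 2 UMIs at 24w. The 0 of Hk2 allows up to 11.2 CPM by the limit of 3 UMIs, no less than its P5 level of 11.1 CPM. Of 8 dissociation stress genes compared 6 were raised in IMN2 and 0 lowered, and their part in the IMN2 ratios was not tested. Against P5 cells of like sex 3 members of 17 compared were raised and 0 lowered in IMN2, with 357 and 215 of 4368 genes. With all P5 cells 375 genes were raised and 496 lowered of 9206. A lowered gene there needed at least 20 UMIs in P5 cells of each sex, so fewer genes could count as lowered. In IMN1 1 member of 15 was raised and 1 lowered against cells of like sex, with 265 and 197 of 3603 genes.

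In PC 10 of 28 members were raised and 0 lowered, but 27.4% of all 10004 genes were raised there too (14% lowered). The raised members were Slc2a1, Slc2a3, Pfkl, Pfkp, Aldoa, Pgk1, Ldhb, Slc16a3, Pdk1 and Pdk2. Pfkl reached 3.28 and 3.10 times P5, and Slc2a1 2.41 and 3.70 times, with 32.1% and 43.0% of its level matched by predicted free RNA. Slc16a3 was at 1.75 (0.897 to 3.75) and 1.68 (0.834 to 3.67) times, intervals that hold 1. Of 13 dissociation stress genes compared 8 were raised in PC and 1 lowered, and their part in the PC ratios was not tested. Against P5 cells of like sex 12 members of 28 were raised and 1 lowered in PC, with 2129 and 640 of 9656 genes.

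Scaling by the median ratio over genes shifted these counts. It gave 2 raised and 3 lowered members in NPC, 1 and 3 in IMN1, 1 and 3 in IMN2 and 8 and 3 in PC, with 286 and 1346, 178 and 782, 235 and 922, and 2084 and 1806 genes raised and lowered, where the CPM scale gave 432 and 987, 261 and 443, 375 and 496, and 2743 and 1402. NSC kept counts of 11 and 0 members, with 593 and 1484 genes (716 and 1196 on the CPM scale), and AS went from 12 and 2 to 11 and 2 members, with 583 and 1882 genes (677 and 1523). Among the X-linked members, Pgk1 in NSC was 3.24 and 4.31 times the level of P5 cells of like sex, and Pdha1, Pdk3 and G6pdx in NSC stayed between 0.83 and 1.38 times. In AS Pdk3 was at 0.476 and 0.393 times, and in PC G6pdx was at 1.07 and 2.61 times.

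The Setd8 KD comparison asked which genes follow a fall of Setd8 in cultured NSCs. The deposited values did not match the titles of their libraries, and those listed for Ctrl_1 and Ctrl_2 were gene symbols and gene lengths. For 170 of 170 genes, within a tolerance of 1e-05, the TPM of the libraries labelled Ctrl_3, Setd8KD_1 and Setd8KD_2 equalled control columns of the study's own expression table, and that of the library labelled Setd8KD_3 a knockdown column. The libraries were therefore compared as 3 controls and 1 knockdown. Setd8 was 154, 143 and 143 TPM in the controls and 36.4 TPM in the library labelled Setd8KD_3, a log2 change of -1.98 ± 0.07 (SE, 3 against 1, limma adjusted p = 0.000113). TPM is per transcript length, 20040076 to 21493347 reads were recovered per library, and the lone knockdown library is assumed to vary like the controls. The p-values therefore rest on the spread of the controls, and an effect of Setd8 KD cannot be told apart from other differences of this library. Tests used limma on log2(TPM + 1), so fold changes of low genes are understated, and every adjusted p of this comparison comes from that test.

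In the library labelled Setd8KD_3 against the controls 3 members were called higher at 1.5-fold or more and 0 lower, of 33 tested, where 6.61% and 8.19% of all 12703 genes were. Pdk4 and Slc16a3 were under a mean of 1 TPM and not tested. Eno2, the neuronal enolase, was 8.96, 7.65 and 7.95 TPM in the controls and 16.3 TPM in the knockdown, a log2 change of 0.92 ± 0.12 (adjusted p = 0.00176). Slc2a3, the neuronal glucose transporter, was 8.64, 7.92 and 7.43 TPM against 14.3 TPM (0.77 ± 0.12, adjusted p = 0.00337). Pdk1, an inhibitory kinase of pyruvate dehydrogenase, was 9.96, 9.70 and 9.05 TPM against 16.2 TPM (0.71 ± 0.11, adjusted p = 0.00284). In each of these the knockdown library lay above all 3 controls. Without a filter on low values Eno2 and Slc2a3 lost the call and Pdk1 passed.

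By adjusted p alone 9 members were higher and 7 lower, where 20% and 21.7% of all genes were. The smaller rises were in Hk1, Gpi1, Pfkp, Aldoa, Ldhb and Pdk2, and the falls in Aldoc, Tpi1, Pkm, Ldha, Pdha1, Tkt and Taldo1. Tkt, the transketolase of the pentose phosphate route, fell most, from 328.5 to 370.0 TPM in the controls to 238 TPM, a log2 change of -0.55 ± 0.07 (adjusted p = 0.00173). Ldha was 997, 967 and 1043 TPM against 751 TPM (-0.42 ± 0.06, adjusted p = 0.00203), and Ldhb 277.5 to 299 TPM against 358 TPM (0.32 ± 0.06, adjusted p = 0.00669), so both subunits left the control range in opposite directions. The share of Ldhb in their summed TPM was 21.2% to 23.6% in the controls and 32.3% in the knockdown. Aldoc was 450.5, 447 and 461.5 TPM against 348 TPM (-0.38 ± 0.05, adjusted p = 0.00165), and Aldoa 1306 to 1349 TPM against 1546 TPM (0.22 ± 0.05, adjusted p = 0.0105).

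The knockdown lay above all 3 controls for 17 members and below for 14 of the 33 tested, where 41.3% and 40.8% of all genes did, and Gapdh and Gpd2 lay within. The median log2 change of the members was 0.09 (0.0011 over all genes). Gapdh was listed at only 1.89 to 3.02 TPM, and what its copies took from this level was not tested. Among the other genes of the pathway 1 was called higher and 4 lower of 35. Slc2a13 was higher at 3.92 TPM against 1.27 to 1.78 TPM. Bpgm, which makes bisphosphoglycerate, was 21.1 TPM against 54.9 to 59.9 TPM (-1.39 ± 0.08), and Dld and Minpp1 were also lower. No citrate cycle gene of 20 was called at 1.5-fold by limma, with 1 higher and 6 lower by adjusted p. Of the dissociation stress genes 5 of 12 were higher, with Ier3, Jund and Egr1 named by the smallest adjusted p, and of the hypoxia genes Ddit4 alone of 16, at 243 TPM against 136.5 to 156 TPM. Grouped by title, 1 control against 3 libraries labelled Setd8KD, limma called 0 members and 0 genes, with 86 genes at an unadjusted p under 0.05.

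**Figure D5:**
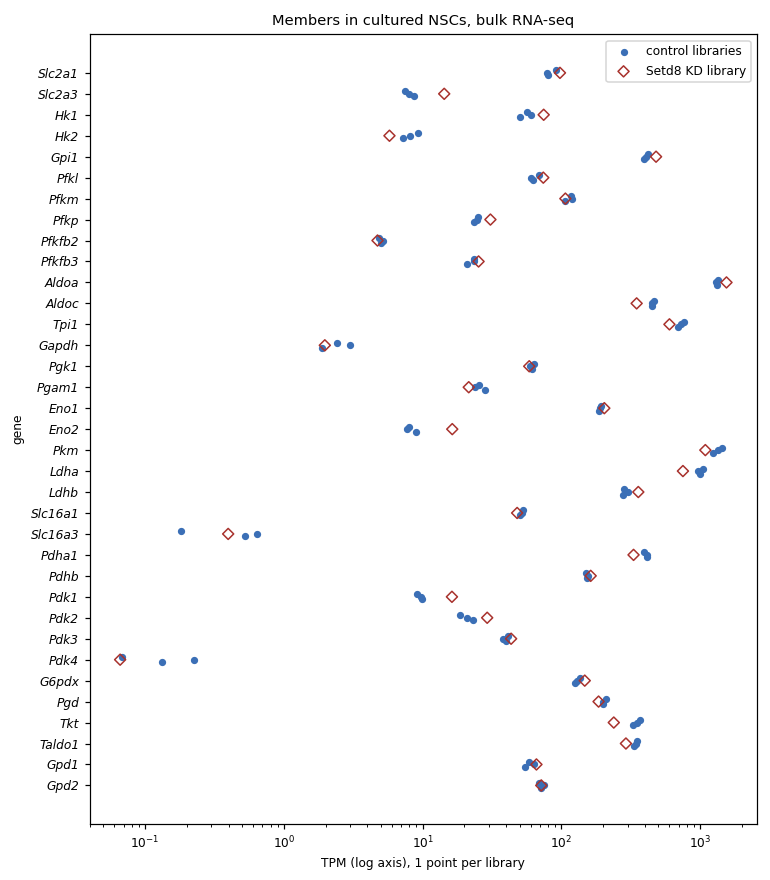
TPM of each member in the 3 control libraries (filled points, labelled Ctrl_3, Setd8KD_1 and Setd8KD_2) and in the library labelled Setd8KD_3, the knockdown (open diamonds), on a log axis. The diamonds of Slc2a3, Eno2 and Pdk1 lie right of the controls at 14.3, 16.3 and 16.2 TPM, and that of Tkt left of them at 238 TPM.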

How the data were processed

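The members, gene lists and tests were chosen with earlier results of these data known. The scRNA-seq values are raw UMI counts, which the authors made with Cell Ranger 2.2.0 on mm10. The bulk values are TPM as deposited, which the authors made after trimming with Trimmomatic and alignment with STAR, with RSEM listed among the study's tools without a stated role. Peak positions came from Cell Ranger ATAC, called per library on mm10. Of the other bulk files, 1 held gene symbols and 1 gene lengths, and these were used only as such. H4K20me1 and bulk ATAC samples were not analysed here.

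Cells needed 1000 UMIs or more, 500 detected genes or more and a mitochondrial share of no more than 10%, and called doublets were removed (932, 80 and 3 at P5, 12w and 24w, a share of 0.107% at 24w, where the caller marked few). The total UMI count was 67543410, 21972852 and 11353643. Clustering used Seurat 5.3.0 (2000 variable genes, 30 dimensions, resolution 0.8), with 125 genes of the lists left out of the variable genes. Class sums were tested with edgeR 4.0.16, with SE taken as the size of the log2 change over the square root of F. Bulk values were tested with limma 3.58.1 on log2(TPM + 1) for genes with a mean of at least 1 TPM, and called at an adjusted p under 0.05 and 1.5-fold. Whole reads were recovered from TPM and gene lengths (100% of genes under 1000 reads within 0.05 of a whole number) and tested with edgeR and DESeq2 1.42.0 as an alternative, which called 3 members each. Scripts were tested on simulated data. With changes set in IMN2 against NSC, the class fit called 14.6% of genes set 2-fold higher and 10.2% of those set at 0.5-fold. It called 65.3% of genes set 3-fold higher and 0.0345% of unchanged genes. The changed genes were drawn across levels and not matched to the members, so recovery can differ for members of high or low level. A member that did not pass between classes may still differ by 2-fold. Named genes were the members called, the 5 with the largest values, members of the same enzyme family, and up to 3 genes a list and direction. Leaving out the clusters led by haemoglobin genes and by Fos, and summing without Aldoc, were added after seeing the data. P-values of the class fit measure how class differences vary between libraries, and those of the bulk fit rest on the spread of the controls. Either spread may be technical, and intervals cover counting error only.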

Additional observations from a re-analysis of the deposited data

Results flagged for a closer look

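Aldoc was counted as raised with age in NSC and AS and as lowered in IMN1. In NPC, IMN2 and PC Aldoc lay below P5 at both adult ages but was not counted. The ratio of its fold change at 24w against P5 in NSC to that in IMN1 was 8.34, and the same ratio of AS to IMN1 was 11.1. For Gapdh the ratio of AS to IMN1 was 3.28. Each was singled out because the gene was counted as raised in 1 class and as lowered in the other by the 1.5-fold rule. The difference was not tested, since each age is 1 library. Predicted free RNA exceeded the IMN1 level of Aldoc at both adult ages.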

How the results depend on the processing

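No paired analysis was possible because the bulk comparison has 1 knockdown library and each age has 1 library. In the library labelled Setd8KD_3 against the controls 1880 genes and 3 members were called. Without a filter on low values these were 975 and 1, by adjusted p alone 5300 and 16, and by GEO title 0 and 0 in limma (86 genes and 0 members at an unadjusted p under 0.05), where Pdk2 turned to -0.043.

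Between classes, leaving out each library in turn gave 1552 to 4789 genes (4271 with all) and 4 to 20 members (12) in NPC, 2206 to 4735 (4746) and 6 to 21 (12) in IMN1, 2787 to 5232 (5161) and 4 to 18 (12) in IMN2, 0 to 786 (131) and 0 to 7 (2) in AS, and 2875 to 5597 genes (5039) in PC. Without the library block NPC had 2478 genes. AS had 222 genes with no filter, 207 at resolution 0.4, 453 without the haemoglobin and Fos clusters, 0 genes and 0 members in edgeR with free RNA subtracted (928 and 4 at an unadjusted p under 0.05), and 5 genes and 0 members without the block (664 and 4 unadjusted). Without the 12w library 633 genes and 3 members of AS had an unadjusted p under 0.05, and without 24w 905 and 5. Among the members named, log2 changes that turned sign when a library was left out were not called with all libraries, and 0 to 4 of the members not listed here also changed sign per class and library left out. Those named ran in NPC from -0.54 to 0.082 for Pfkp (0.0098 without 12w) and from -0.056 to 0.60 for Ldha, in IMN1 from -0.94 to 0.080 for Pfkp, from -1.66 to 0.29 for Pfkfb2 and from -0.16 to 0.11 for Pdk3, in IMN2 from -0.22 to 1.08 for Pfkp, in AS from -0.17 to 0.0012 for Pfkl, and in PC from -0.19 to 0.52 for Hk1 and from -0.46 to 0.10 for Pdk1. Without the haemoglobin and Fos clusters NPC Pfkp was 0.26 and Ldha -0.033, IMN1 Pfkp 0.032, AS Slc2a3 0.16 (0.17 at resolution 0.4) and PC Pdk1 0.13.

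Between ages, a 2-fold rule gave 885 genes (1912 at 1.5-fold) and 6 members (11) in NSC, 715 genes (1419) in NPC, 293 (704) and 1 member (3) in IMN1, 361 (871) and 1 (4) in IMN2, 1136 genes (2200) in AS, and 2270 (4145) and 4 members (10) in PC. With at least 5 UMIs the counts were 3162 in NSC, 2314 in NPC, 1808 genes and 7 members in IMN1, and 2105 and 11 in IMN2. NSC had 7 members at resolution 0.4, and 1120 genes and 6 members without the Fos cluster. NPC had 5 members under median scaling, 5 with free RNA subtracted, and 934 genes in the largest cluster alone, where IMN2 had 2 members. Against P5 cells of like sex IMN1 had 462 genes and IMN2 572, and Pdk3 in IMN2 turned to 0.14. Slc16a3 in PC turned to -0.37 in the largest cluster. The causes were not tested. The 34 to 59 cells of the neuronal classes at 24w limit what could be seen there.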
